A study of Mus musculus with 8 samples.

Results

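The 6 inward rectifier potassium channel genes *Kcnj2*, *Kcnj12*, *Kcnj3*, *Kcnj5*, *Kcnj8* and *Kcnj11* were examined for H3K27Ac, the acetylation of histone H3 that marks active promoters and enhancers. A peak was given to the gene whose curated RefSeq transcription start (mm10, assembly GRCm38.p6) lay nearest to the centre of the peak. This gave the 6 genes 28 peaks of the 45987 in the deposited table. Another 7 peaks of the table lay on unplaced sequences and were left out, so that 45980 peaks served as the comparison. The ChIP-seq data compare a control group (*Arid1a f/f*) with a mutant group (*αMHC-Cre;Arid1a f/f*, called *Arid1a cKO*), each with 2 samples of heart ventricle taken at P7, postnatal day 7. Both groups carried the floxed *Arid1a* alleles, and by their labels the controls carried no Cre, so that an effect of Cre itself cannot be told apart from that of the deletion. With an input library for each heart there were 8 libraries. The comparison asks how loss of ARID1A, a DNA-binding member of the SWI/SNF remodeler, from cardiomyocytes alters histone acetylation in the maturing heart.

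The αMHC promoter drives Cre in cardiomyocytes, whereas ventricles also hold endothelial cells, fibroblasts, pericytes, smooth muscle and leukocytes that keep *Arid1a*. Each value is therefore a mixture over cell types, and fewer cells of a type cannot be told apart from less acetylation per cell. The table holds 1 mean per group and no value per heart. Every level below is the authors' mean of a group, in log2 normalized reads per peak or, where stated, in normalized reads, and every difference is *Arid1a cKO* minus control. These means carry no spread between hearts and no test was run on them; differences are described beside the same differences over all peaks. A peak was counted as lower or higher when the 2 means differed by 2-fold or more, a log2 difference of at least 1.

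Inward rectifiers pass potassium into the cell more readily than out of it, and so hold the membrane near the potassium equilibrium potential without blocking the action potential. *Kcnj2* and *Kcnj12* encode the pore subunits of the strong rectifier current that sets the resting potential of ventricular cardiomyocytes, a current that increases as the heart matures. *Kcnj3* and *Kcnj5* encode the subunits of the acetylcholine-activated GIRK channel, which is opened by G protein βγ subunits and is best known from atrium and sinus node. *Kcnj8* and *Kcnj11* encode the pores of ATP-sensitive (KATP) channels, which couple excitability to metabolism, *Kcnj11* in ventricular cardiomyocytes and *Kcnj8* chiefly in vascular smooth muscle and pericytes.

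At *Arid1a* itself, the peak over the promoter (chr4:133749994-133758098) had a mean of 10.65 in controls and 10.70 in *Arid1a cKO* hearts, and the other peak of the gene differed by -0.02. Acetylation at this locus does not check the deletion, because the floxed allele keeps its promoter and the non-cardiomyocytes keep the whole gene.

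Of the 28 peaks of the 6 genes, 11 were lower in *Arid1a cKO* hearts, against 10.6% of all peaks, and 0 were higher, against 4.57% of all peaks. When only protein-coding starts competed for peaks, the genes had 38 peaks, of which 12 were lower and 3, all given to *Kcnj2*, were higher, with a median difference of -0.39. With all curated starts, as used below, a further 12 differed by less than 2-fold in the same direction, and 5 were above control by less than 2-fold. The median difference over the 28 peaks was -0.74, compared with 0.01 over all peaks, whose quartiles were -0.33 and 0.30. The peaks did not share this difference evenly. *Kcnj2*, *Kcnj12* and *Kcnj3* held all 11 lower peaks among their 12, with a median difference of -2.07 and a range from -6.29, against the lowest value of the table, to -0.71. *Kcnj5*, *Kcnj8* and *Kcnj11* had 0 lower peaks among 16, a median of -0.21 and a range from -0.82 to 0.53. At a 1.5-fold threshold 4 of these 16 peaks were lower, 2 each at *Kcnj5* and *Kcnj11*, against 12 of the 12 and 17.3% of all peaks, so that the count of 0 holds for 2-fold. This division into 3 and 3 genes was made after the values were seen and is a description. It separated the GIRK partners *Kcnj3* and *Kcnj5*, while *Kcnj2* stood with *Kcnj12* and *Kcnj8* with *Kcnj11*.

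**Figure D1:**
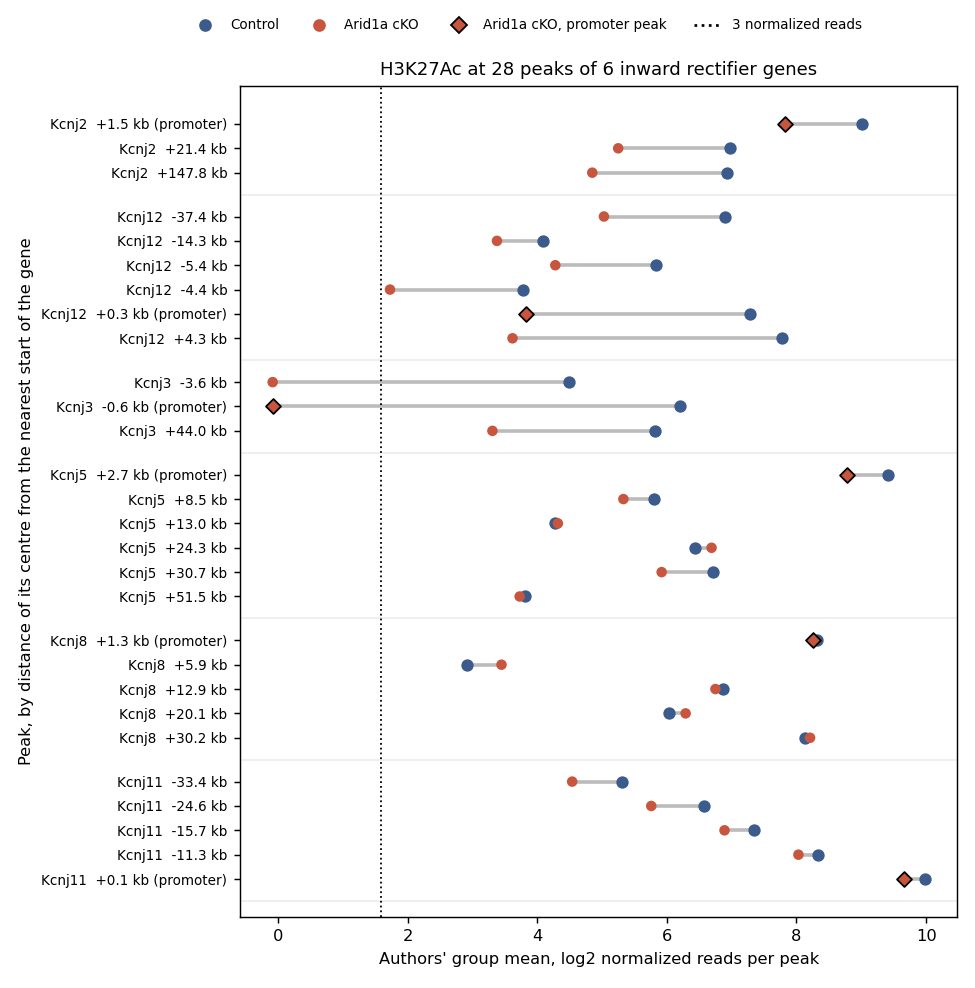
Authors' mean H3K27Ac of each of the 28 peaks in control (blue) and *Arid1a cKO* (red) ventricles, in log2 normalized reads, with peaks ordered by gene and by the distance of their centre from the nearest start; black-edged diamonds mark promoter peaks and the dotted line marks 3 normalized reads. The means are well apart at *Kcnj2*, *Kcnj12* and *Kcnj3*, where 11 of 12 peaks were lower, and close together at *Kcnj5*, *Kcnj8* and *Kcnj11*, where 0 of 16 were.

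Summed over the peaks of each gene, *Kcnj3* had at most 10.4% of the control reads left in *Arid1a cKO* hearts, with means under 3 reads raised to 3, *Kcnj12* 15.9%, *Kcnj2* 38.6%, *Kcnj5* 70.4%, *Kcnj11* 77.7% and *Kcnj8* 101%. The corresponding log2 differences were -3.26, -2.66, -1.38, -0.51, -0.36 and 0.02. Among the 5401 genes of the genome with 3 or more peaks, 3.54% had a summed level lower by 2-fold or more. At *Kcnj3* 2 of the 3 *Arid1a cKO* means lay under 3 reads, so that its difference has no exact rank; with the means as given in the table it was -3.70. A summed difference as low as that of *Kcnj12* was found at 12 of those genes, itself included, or 11 with that floor. For *Kcnj2* this number was 85, or 81 with the floor, for *Kcnj5* 652, for *Kcnj11* 1012 and for *Kcnj8* 3121. At *Kcnj2* and *Kcnj3* every peak was lower, which held for 0.5% of the 5401 genes; at *Kcnj2* this no longer held with protein-coding starts alone. In control hearts the level per kb of peak, which allows genes to be set side by side, was highest at *Kcnj11* (80.9 normalized reads per kb), followed by *Kcnj2* (61.0), *Kcnj5* (58.0), *Kcnj12* (49.1), *Kcnj8* (33.8) and *Kcnj3* (25.9). In *Arid1a cKO* hearts the order of these levels was *Kcnj11* (62.8), *Kcnj5* (40.8), *Kcnj8* (34.2), *Kcnj2* (23.5), *Kcnj12* (7.79) and *Kcnj3* (at most 2.70). Without values per heart it cannot be said which neighbours in these orders differ beyond their spread.

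*Kcnj2* lies on the plus strand of chromosome 11 and had 3 peaks, each lower in *Arid1a cKO* hearts. With protein-coding starts alone it gained 4 peaks, 1 lower and 3 higher, and its summed difference was -1.0 in place of -1.38. The promoter peak (chr11:111064882-111070429), which spans the start and reaches into the intron, had a mean of 9.01 in controls and 7.83 in *Arid1a cKO* hearts, a difference of -1.18. It had the highest control level per kb of the 12 peaks of *Kcnj2*, *Kcnj12* and *Kcnj3* (92.9 normalized reads per kb), and held 67.5% of the control reads of its gene. An intergenic peak 21.4 kb downstream of the start (chr11:111085991-111089210) went from 6.98 to 5.25 (-1.73). The most distant peak, 148 kb downstream in intergenic sequence (chr11:111212079-111215840), went from 6.93 to 4.85 (-2.08). The difference was thus smallest at the promoter and larger at both distal peaks, which kept 30.1% and 23.7% of their control reads against 44.1% at the promoter.

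The *Kcnj2* promoter is shown because a lower peak covers it. These are the 250 bases upstream of the start (chr11:111065914-111066163, plus strand, RefSeq GRCm38.p6), with CpG dinucleotides in capitals.
Kcnj2 promoter: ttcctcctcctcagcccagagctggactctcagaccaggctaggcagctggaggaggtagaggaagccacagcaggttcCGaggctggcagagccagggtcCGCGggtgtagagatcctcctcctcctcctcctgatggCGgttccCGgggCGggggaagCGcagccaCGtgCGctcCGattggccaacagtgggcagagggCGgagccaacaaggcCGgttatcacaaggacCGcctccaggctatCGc
With the 50 bases after the start, this window had 18 CpG, a number reached by 29.7% of the 32851 promoter windows of the same 300 bases in the reference, and a GC content of 66.7%, reached by 15.0% of them. The peak 21.4 kb downstream held matches to the cores bound by MEF2 and by the estrogen-related receptors (ESRR), factors with known roles in cardiomyocyte maturation. Windows of the same width centred on all peaks held the MEF2 core in 8.66% and the ESRR core in 49.5%. The ESRR core also matched in 9 of the 16 peaks of *Kcnj5*, *Kcnj8* and *Kcnj11*, whose sites are not printed. A link of these cores to the differences was not tested. A stretch of it (chr11:111086803-111086851, plus strand, intergenic) had a MEF2 core and, 18 bases further on, the ESRR core AAGGTCA on the opposite strand, both in capitals.
Kcnj2 downstream peak, MEF2 and ESRR cores: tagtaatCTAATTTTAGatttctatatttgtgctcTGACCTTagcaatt
Another stretch of the same peak (chr11:111087233-111087314, plus strand, intergenic) had 2 ESRR cores in opposite orientation, separated by 54 bases and again in capitals.
Kcnj2 downstream peak, 2 ESRR cores: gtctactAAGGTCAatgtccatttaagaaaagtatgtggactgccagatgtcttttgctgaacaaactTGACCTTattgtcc

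*Kcnj12*, whose product assembles with that of *Kcnj2* in the strong rectifier channel, lies on the same chromosome and strand. It had 6 peaks, and 5 of them were lower. The promoter peak at the upstream start (chr11:61021874-61023907) had a mean of 7.28 in controls and 3.83 in *Arid1a cKO* hearts, a difference of -3.45 that left 9.15% of the reads. The neighbouring peak in the following intron (chr11:61024768-61029031) was the strongest of the gene in controls, at 7.78, and went to 3.62 (-4.16), or 5.59% of its reads. Only 3 of all 45980 peaks, this peak included, had both a control mean as high and a difference as low. The third strongest, at -37.4 kb in intergenic sequence (chr11:60984172-60986135), went from 6.90 to 5.03 (-1.87). A peak centred at -5.36 kb from the start (chr11:61016305-61018103) went from 5.83 to 4.28 (-1.55), and a weak intronic peak (chr11:61060940-61061819) from 3.78 to 1.73 (-2.05). The remaining intronic peak (chr11:61051091-61052004), at 4.09 and 3.38, was the exception among the 12 peaks of *Kcnj2*, *Kcnj12* and *Kcnj3*, with a difference of -0.71. At *Kcnj12* the differences were therefore largest at the start and in the intron next to it, unlike at *Kcnj2*.

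A second annotated start of *Kcnj12*, at chr11:61065804, had no peak over it, and the nearest peak ended 3.99 kb before it. The intronic peak next to the upstream start is shown by its central 150 bases (chr11:61026824-61026973, plus strand), in which the capitals mark the TEAD core CATTCC.
Kcnj12 intronic peak, centre: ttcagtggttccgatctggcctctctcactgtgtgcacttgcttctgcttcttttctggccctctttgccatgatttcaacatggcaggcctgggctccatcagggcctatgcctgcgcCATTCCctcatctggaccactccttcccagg
The promoter peak and the intronic peak each had 1 ESRR core, given here 5′ to 3′ on the minus strand with 7 bases on either side (chr11:61023236-61023256 and chr11:61028002-61028022, both in the intron).
Kcnj12 promoter peak, ESRR core: ctcgggtAAGGTCAcgcctag
Kcnj12 intronic peak, ESRR core: ctcccacAAGGTCAtgtcacc

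*Kcnj3*, the GIRK subunit that needs a partner to reach the membrane, had the lowest level per kb of the 6 genes in either group and the lowest share left in *Arid1a cKO* hearts. Its promoter peak (chr2:55433973-55436724) had a mean of 6.21 in controls, or 74.0 normalized reads, and -0.08 in *Arid1a cKO* hearts. This value, 0.946 reads, is the lowest that the table holds for any peak. It was shared by 279 *Arid1a cKO* means and 46 control means, with the next value at 0.48, and is treated here as a lower limit of the table and not as a measured level. Against a floor of 3 reads the promoter peak was at least 24.7-fold lower. A peak centred at -3.61 kb from the start (chr2:55431918-55432812) went from 4.49 to the same -0.08 and was at least 7.49-fold lower against that floor. In the intron, 44.0 kb downstream of the start, a peak (chr2:55478801-55481059) went from 5.82 to 3.31 (-2.51), so that it alone stayed above the floor. With the floor applied to each peak, the summed difference of *Kcnj3* was -3.26 in place of -3.70.

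The *Kcnj3* promoter is shown because its peak was at the lowest value of the table in *Arid1a cKO* hearts. These are the 250 bases upstream of the start (chr2:55435720-55435969, plus strand), with CpG in capitals.
Kcnj3 promoter: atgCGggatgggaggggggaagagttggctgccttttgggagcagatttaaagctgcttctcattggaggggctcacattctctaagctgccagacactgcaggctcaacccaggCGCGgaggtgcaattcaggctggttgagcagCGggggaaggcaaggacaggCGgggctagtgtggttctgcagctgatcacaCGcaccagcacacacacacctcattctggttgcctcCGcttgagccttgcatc
The window of 300 bases had 10 CpG, reached by 43.5% of all promoter windows, and a GC content of 57.7%. The intronic peak held the MEF2 core (chr2:55480108-55480131, plus strand), and the promoter peak held the ESRR core at -1029 bases from the start (chr2:55434931-55434951, plus strand), each in capitals.
Kcnj3 intronic peak, MEF2 core: ttggacaCTATTTTTAGtagtggc
Kcnj3 promoter peak, ESRR core: cttgctcAAGGTCAcccagct

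*Kcnj5*, which encodes the GIRK partner of *Kcnj3* and can also form channels on its own, had 6 peaks. Of these 0 were lower, where 10.6% of all peaks were. The promoter peak (chr9:32338651-32344646) was at 9.41 in controls and 8.78 in *Arid1a cKO* hearts, a difference of -0.63, and held 70.8% of the control reads of the gene. The next strongest, a peak centred past the end of the gene (chr9:32311768-32315497), went from 6.71 to 5.92 (-0.79). Both peaks were lower at the 1.5-fold threshold. An intronic peak (chr9:32318640-32321389) was at 6.44 in controls and 6.69 in *Arid1a cKO* hearts (0.25). The other 3 peaks had differences between -0.47 and 0.05. In control hearts *Kcnj5* had 58.0 normalized reads per kb of peak and *Kcnj3* 25.9. With means under 3 reads raised to 3, the levels in *Arid1a cKO* hearts were 40.8 and at most 2.70. The levels of the partners thus lay further apart in the mutant. This difference between the genes was not tested. The *Kcnj5* promoter (chr9:32344345-32344594, minus strand) is shown beside that of *Kcnj3*, with CpG in capitals.
Kcnj5 promoter: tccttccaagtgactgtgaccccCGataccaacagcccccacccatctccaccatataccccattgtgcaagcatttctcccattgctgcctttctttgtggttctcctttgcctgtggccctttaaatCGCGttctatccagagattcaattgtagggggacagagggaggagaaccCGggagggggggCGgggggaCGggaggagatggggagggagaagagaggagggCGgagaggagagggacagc
It had the same 10 CpG in its 300 bases as the *Kcnj3* promoter, and a GC content of 58.3%.

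**Figure D2:**
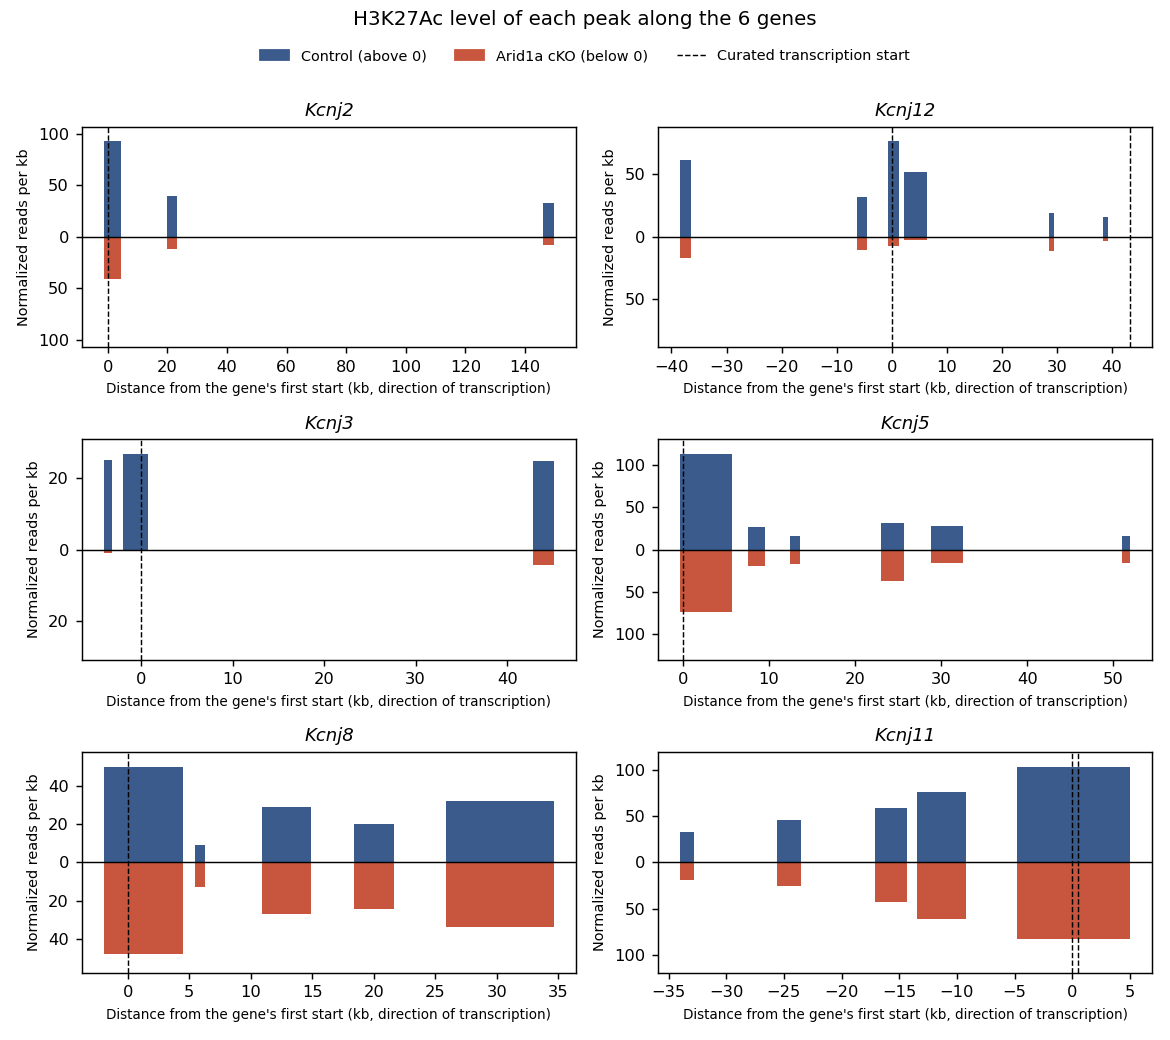
H3K27Ac along each of the 6 genes, as normalized reads per kb of peak in control ventricles (blue, above 0) and in *Arid1a cKO* ventricles (red, mirrored below 0), against distance in kb from the first start in the direction of transcription; each bar spans its peak and dashed lines mark curated starts. At *Kcnj3* the red bars near the start are hardly visible, because these means are at the lowest value of the table. At *Kcnj8* the bars mirror each other (49.9 in control and 47.8 in *Arid1a cKO* ventricles at the promoter).

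The KATP pore genes had 0 lower peaks among 10, where 10.6% of all peaks were lower. *Kcnj8* had the smallest summed difference of the 6 genes. Its promoter peak (chr6:142567130-142573536) was at 8.32 in controls and 8.26 in *Arid1a cKO* hearts (-0.06). A broad intergenic peak 30.2 kb downstream of the start (chr6:142536984-142545776) was at 8.13 and 8.21 (0.08), and another (chr6:142556676-142560720) at 6.87 and 6.75 (-0.12). The other 2 peaks of *Kcnj8* differed by 0.25 and 0.53, the latter at a weak peak with a control mean of 2.92. *Kcnj11* had the highest level per kb of the 6 genes. Its promoter peak (chr7:46095756-46105533), which spans the whole gene, was at 9.98 in controls and 9.66 in *Arid1a cKO* hearts (-0.32). The remaining 4 peaks lay upstream, in introns of *Abcc8*, the sulfonylurea receptor gene that lies upstream of *Kcnj11*. The 2 strongest of them went from 8.33 to 8.03 (-0.30, chr7:46109938-46114200) and from 7.35 to 6.89 (-0.46, chr7:46115074-46117867). The weaker ones, further upstream, had differences of -0.82 and -0.77. All 5 peaks of *Kcnj11* were thus below control by less than 2-fold, while 3 of the 5 peaks of *Kcnj8* were above it.

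The promoter of *Kcnj8* (chr6:142571615-142571864, minus strand) is given as the member promoter with the smallest difference, with CpG in capitals.
Kcnj8 promoter: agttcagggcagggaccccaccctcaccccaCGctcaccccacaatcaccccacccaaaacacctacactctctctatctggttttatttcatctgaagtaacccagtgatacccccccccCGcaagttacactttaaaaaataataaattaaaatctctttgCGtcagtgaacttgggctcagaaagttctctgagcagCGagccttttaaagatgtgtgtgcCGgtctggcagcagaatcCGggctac
Its 300 bases had 9 CpG, reached by 45.8% of promoter windows, and a GC content of 53.3%. The only MEF2 core in the 16 peaks of *Kcnj5*, *Kcnj8* and *Kcnj11* lay in this peak, at -806 bases from the start (chr6:142572409-142572432, plus strand).
Kcnj8 promoter peak, MEF2 core: gaaagacCTAAAATTAGtctttaa

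All 6 genes had a peak over a promoter, taken as 1000 bases before to 100 bases after a curated start. Promoter peaks were lower at *Kcnj2*, *Kcnj12* and *Kcnj3*, 3 of 6, against 1.87% of the 12356 promoter peaks of the genome. Among the 22 other member peaks 8 were lower, against 13.8% of all peaks away from promoters. These 8 were among the 9 such peaks of *Kcnj2*, *Kcnj12* and *Kcnj3*, and 0 were among the 13 of *Kcnj5*, *Kcnj8* and *Kcnj11*.

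Weak peaks differed more often than strong ones across the genome. Divided into 4 classes of about equal size by the mean over both groups, from weakest to strongest, 16.5%, 14.0%, 9.13% and 2.75% of all peaks were lower. The member peaks were lower in 2 of 5, 3 of 5, 5 of 11 and 1 of 7 peaks of these classes. The single lower peak in the strongest class was the *Kcnj2* promoter peak. A control mean as high as its 9.01 was found at 2125 peaks, and 29 of them, this peak included, also had a difference as low as -1.18. For the *Kcnj12* promoter peak, 19 of 9915 peaks with a control mean as high had a difference as low.

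**Figure D3:**
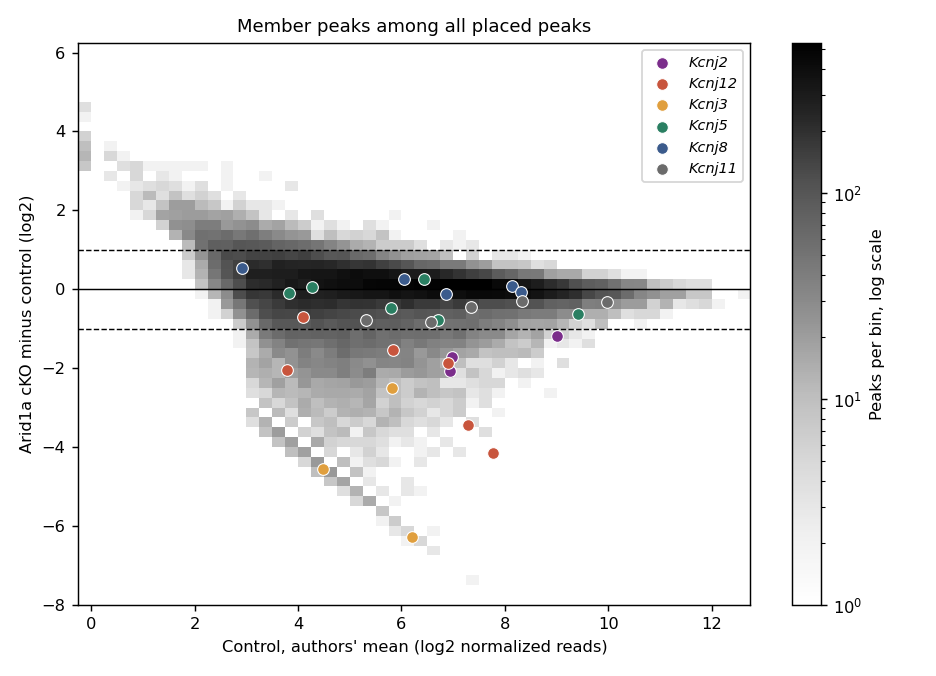
Difference between *Arid1a cKO* and control (log2) against the authors' control mean (log2 normalized reads) for all 45980 placed peaks, in grey bins of 0.25 by 0.25 shaded by their number on a log scale, with the 28 member peaks as coloured points; dashed lines mark 2-fold. The diagonal lower edge of the grey area is where *Arid1a cKO* means are at the minimum of the table, -0.08, and holds 2 peaks of *Kcnj3*; the intronic peak of *Kcnj12* lies at 7.78 and -4.16.

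Most peaks of neighbouring genes were within 2-fold of control, as were most peaks of the table, of which 10.6% were lower and 4.57% higher. Within 200 kb of the *Kcnj2* start, both peaks given to another gene, *Kcnj16*, were above control (0.25 and 0.28). *Kcnj16*, an inward rectifier gene of kidney and glia, starts 42.3 kb from *Kcnj2*. These peaks lay further off, at -123 and -72.3 kb from the *Kcnj2* start, and neither was over the *Kcnj16* promoter. The more distant peak was weak, with a control mean of 3.32. Around *Kcnj12*, 1 of 9 peaks of other genes was lower, and their median was -0.15. The lower peak was a weak peak of *Map2k3* that went from 3.44 to 1.51, under 3 reads, so that its difference of -1.93 is not exact. No peak of another gene lay within 200 kb of *Kcnj3*. Around *Kcnj5*, 1 of 12 was lower and 1 higher, both given to *Arhgap32*, and the peaks of *Kcnj1*, which starts 28.1 kb away, differed by 0.24 and 0.36. Around *Kcnj8* 2 of 33 were lower, at *Ldhb* (-1.64) and *Cmas* (-1.39), and around *Kcnj11* 1 of 7 was, at *Ush1c* (-1.30).

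The MEF2 core, the ESRR core AAGGTCA, the E-box CACCTG and the TEAD core CATTCC were searched on both strands of all member peaks, and the 139 matches held 0 overlaps between different motifs. The MEF2 core matched in 3 of the 12 peaks of *Kcnj2*, *Kcnj12* and *Kcnj3*, where windows of the same widths centred on all peaks held it in 7.23% on average, and in 1 of the 16 other peaks, where the windows held it in 9.33%. The ESRR core matched in 6 of 12 peaks (windows 39.6%) and in 9 of 16 (windows 48.9%). All 3 peaks of *Kcnj2* held it, with 6 matches, 4 of them in the peak 21.4 kb downstream. The E-box matched in 8 of 12 peaks (windows 74.4%) and in 14 of 16 (windows 80.4%), and the TEAD core in 10 of 12 (windows 69.9%) and in 10 of 16 (windows 76.7%). None of these shares was tested, and a match is a description of the letters. Of the 6 genes 5 had an entry among the RefSeq promoter windows, *Kcnj11* being the exception. The only match in these windows was an E-box at the second *Kcnj12* start, the one without a peak over it. The upstream *Kcnj12* start, whose promoter peak was lower, had no such window. Among all promoter windows 0.557% held the MEF2 core, 4.72% the ESRR core, 20.2% the E-box and 14.7% the TEAD core.

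The rest of the inward rectifier family gave few peaks. Of 9 further genes 6 had peaks, and 3 of their 18 peaks were lower (16.7%, against 10.6% of all peaks) and 1 was higher (5.56%, against 4.57%). The only peak of *Kcnj14*, over its promoter (chr7:45824631-45825480), went from 4.02 to the table minimum of -0.08 and was at least 5.41-fold lower against the floor of 3 reads. *Kcnj15* had a summed difference of -1.08. At the other end *Kcnj1* had 0.27. *Kcnj9*, *Kcnj10* and *Kcnj13* had no peak. The subunits that complete the KATP channel, the sulfonylurea receptor genes *Abcc8* and *Abcc9*, had 0 lower peaks among 14 and summed differences of -0.26 and -0.05. The value of *Abcc8* rests on 2 peaks, since 4 peaks in its introns were given to *Kcnj11*.

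Among 18 genes of GIRK signalling, from receptors to G protein subunits and their regulators, 3 of 45 peaks were lower and 2 higher. The lowest summed difference was that of the adenosine A1 receptor gene *Adora1* (-1.20), whose promoter peak (chr1:134230368-134235484) went from 7.31 to 5.72. The M2 muscarinic receptor gene *Chrm2* had -0.46. *Gng2*, a G protein γ subunit gene, was highest, at 0.46. For scaffold and trafficking proteins of the strong rectifier channel 5 of 55 peaks were lower and 4 higher, from *Cav3*, the muscle caveolin, at -0.57 to *Ap1b1*, an adaptor subunit gene, at 0.32. For kinases that supply PIP2, the membrane lipid all inward rectifiers need to open, 1 of 17 peaks was lower and 2 were higher, from *Pip5k1b* at -1.10 to *Pip4k2a* at 0.24. In these 3 lists 6.67%, 9.09% and 5.88% of peaks were lower, near the 10.6% of all peaks, and 4.44%, 7.27% and 11.8% were higher, against 4.57%.

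Other potassium channels of the cardiomyocyte gave a mixed picture. Of 6 tandem pore domain channel genes 4 had peaks, and 3 of their 9 peaks were lower, all at *Kcnk3*, the background channel TASK, with a summed difference of -2.72. *Kcnk2*, the stretch-gated channel TREK, had 0.67. Of 10 genes of voltage-gated repolarizing channels 9 had peaks, and 12 of 51 peaks were lower, 23.5% against 10.6% of all peaks, and 5 were higher, 9.80% against 4.57%. *Kcnd3*, a pore gene of the transient outward current, was lowest at -1.35 and its auxiliary subunit gene *Kcnip2* highest at 0.03. The value of *Kcnd3* rests on a single peak that was not over its promoter. Of the 2 promoter peaks of *Kcnh2*, the rapid delayed rectifier gene, 1 (chr5:24325996-24331283) was lower, going from 8.39 to 5.57 (-2.82), and the summed difference of the gene was -0.74. The promoter peak of *Kcnip2* (chr19:45813921-45817644) went from 7.09 to 8.13 (1.04).

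**Figure D4:**
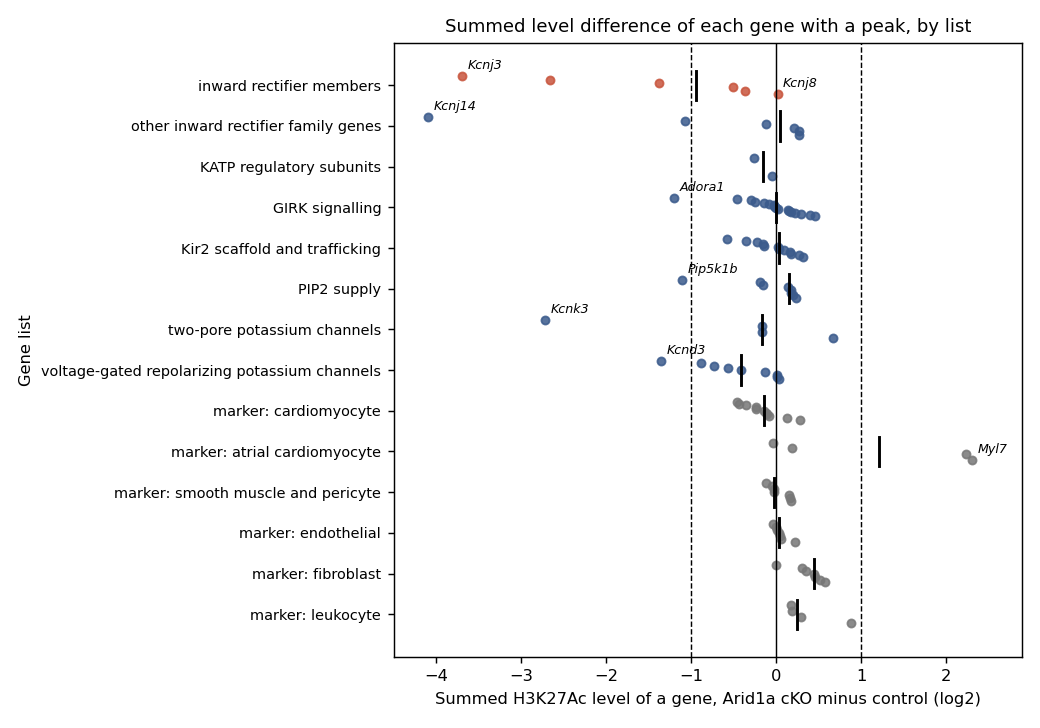
Summed H3K27Ac difference of each gene with a peak, *Arid1a cKO* minus control (log2), by gene list; points are genes (red for the 6 members, blue for channel and partner lists, grey for cell type markers), black bars are list medians and dashed lines mark 2-fold. *Kcnj3* (-3.70), *Kcnj12* (-2.66) and *Kcnj2* (-1.38) are the lowest members. Single genes of other lists reach similar values, among them *Kcnk3* (-2.72) and, from a single peak, *Kcnd3* (-1.35). *Kcnj3*, *Kcnj14*, *Kcnj15*, *Kcnk3* and *Myl7* include means under 3 reads.

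Markers of the cell types in the ventricle were read in the same way. The 12 cardiomyocyte markers had 58 peaks, 5 lower (8.62%, against 10.6% of all peaks) and 2 higher (3.45%, against 4.57%). Their levels summed to 24766 normalized reads for the controls and 22287 for the mutants (-0.15), with *Ryr2* the most abundant (4893 and 4622 reads) and *Actc1* without a peak. *Tnnt2* had the lowest summed difference of this list, -0.46, and *Tnni3* the highest, 0.28, from a single peak of 44.0 control reads that was not over its promoter. Smooth muscle and pericyte markers were at 4512 and 4645 reads (0.04), with 0 lower and 1 higher of 31 peaks, *Abcc9* the most abundant (1800 and 1742 reads), *Myh11* lowest (-0.12) and *Pdgfrb* highest (0.18). *Abcc9* held 12 of these 31 peaks and is also counted above as a KATP subunit gene, so that this sum cannot be given to these cell types alone. Endothelial markers were at 14840 and 15034 reads (0.02), with 3 lower and 1 higher of 51 peaks, *Kdr* the most abundant (5370 and 5515 reads), *Pecam1* lowest (-0.03) and *Emcn* highest (0.22).

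Summed fibroblast and leukocyte levels stood above control, and the counts here are again to be read against 10.6% lower and 4.57% higher among all peaks. Fibroblast markers were at 3033 and 4057 reads (0.42), with 1 lower and 4 higher (10.5%) of 38 peaks, the 4 higher all at *Tcf21*, the most abundant (844 and 1150 reads), *Dpt* lowest (0.00) and *Col1a1* highest (0.58). Leukocyte markers were weak, at 135 and 187 reads (0.47), with 0 lower or higher of 5 peaks, *Csf1r* the most abundant (46.0 and 56.4 reads), *C1qa* lowest (0.17), *Ptprc* highest (0.88) and *Adgre1* and *Lyz2* without a peak. Atrial markers, of interest because *Kcnj3* is an atrial channel gene, were at 923 and 1138 reads (0.30), with 3 lower (15%) and 5 higher (25%) of 20 peaks and *Nr2f2* the most abundant (835 and 817 reads) and lowest (-0.03). All 3 lower peaks were at *Nr2f2*, and the median summed difference over the genes was 1.21. *Nppa* had a summed difference of 2.24 and *Myl7* of 2.31, or 2.24 with means under 3 reads raised to 3. The promoter peak of *Nppa* (chr4:147998006-148005329), a fetal and atrial peptide gene, went from 5.63 to 7.87 (2.24), that of *Myl7* (chr11:5898135-5898849) from 1.29, under 3 reads, to 3.51, *Myl4* had a summed difference of 0.19, and *Sln* had no peak. The part of these cell types in the differences at the channel genes was not tested.

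For each gene the protein-coding genes with the same number of peaks and the nearest values of summed control level and summed difference were taken as most alike over the 2 group means. For *Kcnj2* these were *3425401B19Rik* (summed difference -1.29) and *Cacna1g* (-1.48), out of 1347 genes with 3 peaks. *Kcnj12* lay nearest to *Homer2* (-1.84), out of 403 genes with 6 peaks, and *Kcnj3* to *Slc9a7* (-3.13) and *Bpifb1* (-2.58). The genes nearest to *Kcnj5* were *Wdr1* (-0.51) and *Uvrag* (-0.43), those nearest to *Kcnj8* were *Tspan14* (0.04) and *Tnpo1* (-0.03), and those nearest to *Kcnj11* were *Mylk3* (-0.34) and *Rab11fip5* (-0.40). The genes named for *Kcnj12* and *Kcnj3* were less low than the member itself. Their distances over the 2 values, in log2, were 0.84, 0.88 and 1.17, against 0.02 to 0.17 for the other genes named. For *Kcnj3* the match used the summed difference of -3.70, which includes means at the table minimum and is not exact.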

How the data were processed

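H3K27Ac ChIP-seq libraries and inputs came from P7 ventricles. Per the study's methods and processing notes, reads were mapped to mm10 with BWA 0.7.17-r1188, peaks were called with HOMER against merged inputs and kept when found in 2 or more samples, and the authors used DiffBind 2.12.0 and DESeq2 1.24.0 to compare the groups. Used here are the deposited values, which are log2 mean normalized reads per peak, computed by the authors over each group and over all samples. Library scaling, input subtraction and depth are not given in the sources used here, so the precision of a mean is unknown. Values per sample were found in 0 columns. The table's columns with the authors' fold change, p-value and false discovery rate were not used.

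Python 3.11.15, numpy 2.4.6 and pandas 2.3.3 were used to assign peaks to 45756 curated transcripts, to difference the means and to sum linear reads per gene; assignment and motif search were tested on simulated data. Named were the 6 genes, Arid1a, each member peak over a promoter, among the 3 strongest of its gene or past 2-fold, the extreme genes of each list, list genes with a promoter peak past 2-fold, and the 2 most alike genes, of which 1 is not reported here. Genes and lists were chosen with earlier results of these data known. Alternatives covered the fold threshold, centring, low values, a floor of 3 reads, assignment, promoter peaks and the summary per gene.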

Additional observations from a re-analysis of the deposited data

How the results depend on the processing

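With no value per heart in the columns used, no library could be left out, and the differences are given without a replicate error. No paired analysis was possible because the table holds group means. A log2 difference was taken as moved when it shifted by 1.5-fold or more, a limit that does not stand in for a replicate spread. Several settings could hardly move a value. Centring shifted differences by 0.01 or -0.08, the floor changed only the *Kcnj3* sum, and distance from the peak edge gave the same 28 peaks and values. Of 91 recomputed values, these included, 86 stayed within that 1.5-fold limit, or within 1.5 times for a count. Of 60 gene differences 59 kept their sign. The exception was *Kcnj8*, at -0.06 with predicted transcripts included, against 0.02. At a 4-fold threshold 7 and at a 1.5-fold threshold 16 member peaks were lower in place of 11. With protein-coding starts alone the genes gained 10 peaks, and 3 of the 4 gained by *Kcnj2* were higher, so that the count of higher peaks was 3 in place of 0. As a median over peaks the *Kcnj12* difference was -1.96. That of *Kcnj3* was -2.86 without promoter peaks and -4.57 as a median, but both use means at the table minimum. With means under 3 reads raised to 3, in alternatives chosen after seeing the data, these were -2.61 and -2.91, against -3.26 for the sum. Both had moved from the -3.70 of the means as given, and neither is among the 91. Subtracting the median of all peaks (0.01) or the ratio of their summed reads (-0.08) left 11 lower and 0 higher. Over all alternatives *Kcnj2* ranged from -1.89 to -1.0 and *Kcnj12* from -2.96 to -1.96.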
